A study of Mus musculus with 27 samples.

Results

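The regions described here were CpG-dense stretches of the mouse genome that lie away from protein-coding genes. The autosomes were cut into tiles of 1 kb, and a tile was taken when it held 20 or more cytosine positions listed in all 27 samples and its midpoint lay more than 5 kb outside the span of every protein-coding gene. The stretch of ribosomal RNA repeat on chromosome 17 was left out. This rule took 874 of the 18566 dense autosomal tiles (4.71%) and of the 161691 tiles with any shared position. The rule used position counts and gene spans and no methylation value. The other 17692 dense tiles, inside or within 5 kb of a protein-coding gene, serve for comparison and are called near-gene tiles.

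Methylation was measured by reduced representation bisulfite sequencing (RRBS) of DNA from liver, labelled hepatocytes, of female mice aged 12 weeks. RRBS cuts DNA with MspI, which recognises CCGG, and so reads CpG-rich DNA. The mice came from 9 inbred strains with 3 biological replicates each, 6 of them laboratory strains (C57BL/6J, 129S1/SvImJ, DBA/2J, A/J, NZO/HlLtJ and NOD/ShiLtJ) and 3 derived from wild mice (WSB/EiJ, PWK/PhJ and CAST/EiJ). No strain was treated, and none served as a control. Each sample listed between 2904787 and 3156965 positions, of which 1692477 were listed in all 27. Correlations between replicates of a strain ran from 0.976 to 0.988 over the 45604 tiles of the genome tested for strain differences below. They were not computed over the 874 tiles alone, nor set against pairs of different strains. The start of 3 of 10 hepatocyte marker genes could be read, at a mean of 0.652% for Apoa2 (0 to 1.83% over samples), 4.68% for Fgb (0.585% to 13.3%) and 4.84% for Hnf4a (0.570% to 25.4%). Among markers of other liver cells, Kdr (endothelium) was at 1.56%, Lrat and Des (stellate cells) at 3.12% and 12.5%, and Krt7 and Epcam (bile duct) at 24.3% and 52.1%. No start of 6 leukocyte markers could be read. Low means were thus found at markers of hepatocytes and of other cells, and the starts did not check the labelled cell type. Files of C57BL/6J named the mitochondrial chromosome otherwise than those of the other strains, so that any difference in processing behind this cannot be told apart from strain.

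CpG islands are short stretches rich in CpG that usually escape DNA methylation, in contrast to most CpGs of the genome. Many islands hold the promoters of protein-coding genes. Others, called orphan islands, lie between genes, where they can act as promoters of noncoding RNAs or as regulatory elements, and orphan islands are known to gain methylation more often than promoter islands. The clusters of developmental transcription factor genes are known for islands that Polycomb proteins occupy.

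Some of the dense tiles far from genes held starts of long noncoding RNAs (lncRNAs). How often other tiles held such a start was not counted. Of the 874 tiles, 108 contained the start of at least 1 lncRNA, and RefSeq (GRCm38.p6) gives a sequence window, from 250 bases before to 50 after the start, for 135 starts of 115 genes in them. The 5 windows below show what such tiles look like at different methylation levels, with each CpG in capitals. Chaserr, a lncRNA beside the chromatin remodeller gene Chd2, stands for the unmethylated tiles, and Gm33931 for the methylated ones. Gm33022, Gm36794 and Gm35510 are starts at intermediate level in tiles that differed among strains. The windows, in this order, are chr7:73558346-73558645, minus strand, chr5:128656706-128657005, minus, chr14:19311640-19311939, minus, chr5:111944408-111944707, minus, and chr4:119073019-119073318, plus.
Chaserr: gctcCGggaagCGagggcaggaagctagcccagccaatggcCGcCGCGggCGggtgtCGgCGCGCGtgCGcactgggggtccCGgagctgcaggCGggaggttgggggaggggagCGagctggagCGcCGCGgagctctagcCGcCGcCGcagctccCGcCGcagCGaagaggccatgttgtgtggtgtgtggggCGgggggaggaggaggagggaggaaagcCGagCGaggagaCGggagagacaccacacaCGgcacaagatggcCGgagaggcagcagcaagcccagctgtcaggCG
Gm33931: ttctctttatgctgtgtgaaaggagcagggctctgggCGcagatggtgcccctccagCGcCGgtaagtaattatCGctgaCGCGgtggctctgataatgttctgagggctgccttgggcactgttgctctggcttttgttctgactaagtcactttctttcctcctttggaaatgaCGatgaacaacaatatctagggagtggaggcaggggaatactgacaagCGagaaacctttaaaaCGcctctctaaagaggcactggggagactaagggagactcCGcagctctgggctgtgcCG
Gm33022: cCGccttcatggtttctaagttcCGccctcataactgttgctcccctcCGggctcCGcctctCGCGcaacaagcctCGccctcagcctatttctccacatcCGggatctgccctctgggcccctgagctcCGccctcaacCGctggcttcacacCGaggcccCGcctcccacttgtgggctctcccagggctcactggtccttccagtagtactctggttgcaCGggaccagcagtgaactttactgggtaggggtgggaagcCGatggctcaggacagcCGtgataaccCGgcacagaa
Gm36794: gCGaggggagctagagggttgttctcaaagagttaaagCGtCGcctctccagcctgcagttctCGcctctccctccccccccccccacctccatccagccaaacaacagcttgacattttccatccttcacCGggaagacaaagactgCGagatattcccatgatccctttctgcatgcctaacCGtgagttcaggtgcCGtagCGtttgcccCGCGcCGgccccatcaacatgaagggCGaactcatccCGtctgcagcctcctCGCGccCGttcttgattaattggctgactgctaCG
Gm35510: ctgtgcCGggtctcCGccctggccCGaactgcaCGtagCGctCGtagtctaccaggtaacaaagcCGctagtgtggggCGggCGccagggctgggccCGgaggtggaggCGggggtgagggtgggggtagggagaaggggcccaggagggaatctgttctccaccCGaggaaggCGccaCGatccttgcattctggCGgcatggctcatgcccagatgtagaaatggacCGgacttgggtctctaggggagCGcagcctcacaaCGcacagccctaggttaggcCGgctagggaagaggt
The Chaserr window held 30 CpGs and 31 listed positions, with a level of 0.461%. That of Gm33931 held 11 CpGs and 14 positions, at 81.3% and between 76.1% in 129S1/SvImJ and 84.7% in CAST/EiJ. The Gm33022 window (16 CpGs) averaged 42.2% and ran from 5.58% in DBA/2J to 60.5% in WSB/EiJ. The Gm36794 window (18 CpGs) averaged 46.4% and ran from 25% in WSB/EiJ to 75.3% in CAST/EiJ, and the start of a further lncRNA, Gm42156, lies in the same tile on the other strand. The Gm35510 window (19 CpGs) averaged 48.1% and ran from 32.8% in PWK/PhJ to 63.6% in NOD/ShiLtJ. The 4 windows at intermediate or high level held 11 to 19 CpGs, fewer than that of Chaserr. The Chaserr window was itself above the median of 20 CpGs in the 121 windows of unmethylated tiles. These 5 examples therefore do not compare the classes.

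Over all 135 windows the median was 60.7% G and C, 19 CpGs and an observed-to-expected CpG ratio of 0.698. All autosomal lncRNA starts had medians of 48.3%, 4.00 CpGs and 0.246, and protein-coding starts had 57%, 14.0 CpGs and 0.586. The rule asks for many listed CpG positions, so this composition is partly fixed by it. The letters CCGG, the MspI site, were in 85.9% of the windows against 35.7% of all lncRNA starts and 63.5% of protein-coding starts. GGGCGG on either strand, a core of the GC box, was in 57% against 16.3% and 47.0%, and TGCCGC on either strand in 16.3% against 7.03% and 14.2%. The 121 windows in unmethylated tiles had a median of 20 CpGs, and the 14 in intermediate or methylated tiles had 10.5. A match of letters is a description of the window and not a bound site.

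Small RNA genes were the other group whose sequence can be shown. The unmethylated tiles included the loci of Mir9-1 and Mir9-3, which make the brain-enriched miR-9, and those of let-7i, miR-193a, miR-129 and miR-760. Their mature forms, with the seed (bases 2 to 8) in capitals, show which products are made from loci in these tiles.
mmu-miR-9-5p: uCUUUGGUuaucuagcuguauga
mmu-let-7i-5p: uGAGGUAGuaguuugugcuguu
mmu-miR-193a-3p: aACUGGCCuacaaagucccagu
mmu-miR-129-5p: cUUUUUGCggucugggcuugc
mmu-miR-760-3p: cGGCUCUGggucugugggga
Mir9-1 on chromosome 3 and Mir9-3 on chromosome 7 make the same miR-9-5p and hence share its seed, and the other 4 seeds differ from it and from each other. The Mir9-1 tile (45 positions) was at 3.25%, with samples from 0.513% to 7.12%, and the Mir9-3 tile (79 positions) was at 3.19%, from 1.95% to 4.74%. Lower still were the tiles of Mirlet7i (106 positions, 0.453%), Mir193a (139 positions, 0.489%) and Mir760 (161 positions, 0.497%). The Mir129-2 tile (30 positions) was at 1.56%. The brain miRNA gene Mir124a-3 overlapped a tile of 81 positions at 3.14%. None of these tiles differed by more than 3.33 points between its highest and lowest strain.

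Most dense tiles far from genes were unmethylated in liver cells. With the mean over all samples, 685 tiles (78.4%) were under 20% and are called unmethylated, 109 (12.5%) lay at 20 to 80% and are called intermediate, and 80 (9.15%) were over 80% and are called methylated. The median tile was at 3.62% and held 30 positions. Of the near-gene tiles 90.3% were unmethylated, 4.24% intermediate and 5.49% methylated, with a median of 0.751% and 47.0 positions. In tiles as far from genes but with 5 to 19 positions, of which there were 11444, the shares were 12.5%, 26.4% and 61.1%. Listing limited which tiles could enter, since 9611 tiles far from genes held 20 positions listed in at least 1 sample and 9.09% of them were members.

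The difference from near-gene tiles was present in each of the 9 strains. Averaged over strain means, the share of unmethylated tiles was 78.6% ± 1.25 (SD, n = 9 strains) far from genes and 90.3% ± 0.356 near them, a difference of -11.7 points ± 0.913. The share of intermediate tiles was higher far from genes by 8.25 points ± 0.843, the share of methylated tiles by 3.41 points ± 0.426 and the mean level by 7.93 points ± 0.477. Each of these 4 differences had p = 0.00391 in an exact sign-flip permutation test over the 9 strain means, two-sided, the smallest p that 512 sign flips allow (adjusted 0.00439 over the 9 sample-level tests made). The test covers the spread between strains and not the choice of tiles. With other distances, minimum numbers of positions and limits of the classes, the difference ran from -32.1 to -2.11 points for the unmethylated share and from 3.16 to 15.7 for the intermediate share. It ran from 1.25 to 24.1 for the mean level and from -1.04 to 17.9 for the methylated share, so that the sizes depend on how a tile is chosen. Over the 19 autosomes, the mean level was higher far from genes on 19, the intermediate share on 18 and the methylated share on 14, and the unmethylated share was higher on 0.

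The number of positions per tile moved with these shares. Among tiles of 20 to 29 positions, 62.2% of the 421 far from genes and 74.0% of the 4245 near genes were unmethylated, and 19.7% against 9.56% were intermediate. At 30 to 49 positions the unmethylated shares were 89.8% and 90.8%, and at 50 or more they were 98.4% and 98.2%. Over strain means, the difference in the unmethylated share was -11.1, -1.03 and 0.0860 points in the 3 bins, the last with an exact sign-flip p = 0.562. The difference in the intermediate share kept its sign, at 10.2, 3.77 and 0.552 points, each with exact p = 0.00391. At 50 or more positions it rests on few tiles, 3 intermediate ones of 187 far from genes (1.60%) and 103 of 8406 near them (1.23%), which all strains share. The share of methylated tiles was higher far from genes in the lowest bin (0.959 points) and lower in the others (-2.74 and -0.638 points), each with exact p = 0.00391. By the mean over all samples, methylated tiles at 30 to 49 positions were 4 of 266 far from genes and 224 of 5041 near them. At 50 or more positions they were 0 of 187 and 51 of 8406. The strains share these tiles, so the test does not cover their small number far from genes. The bins were chosen after seeing the data. The mean level was higher by 6.39 points in the lowest bin, lower by 0.273 in the middle (exact p = 0.00781) and higher by 0.453 in the highest. Thus the differences in the unmethylated and intermediate shares and in the mean level were largest in size in the lowest bin.

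**Figure D1:**
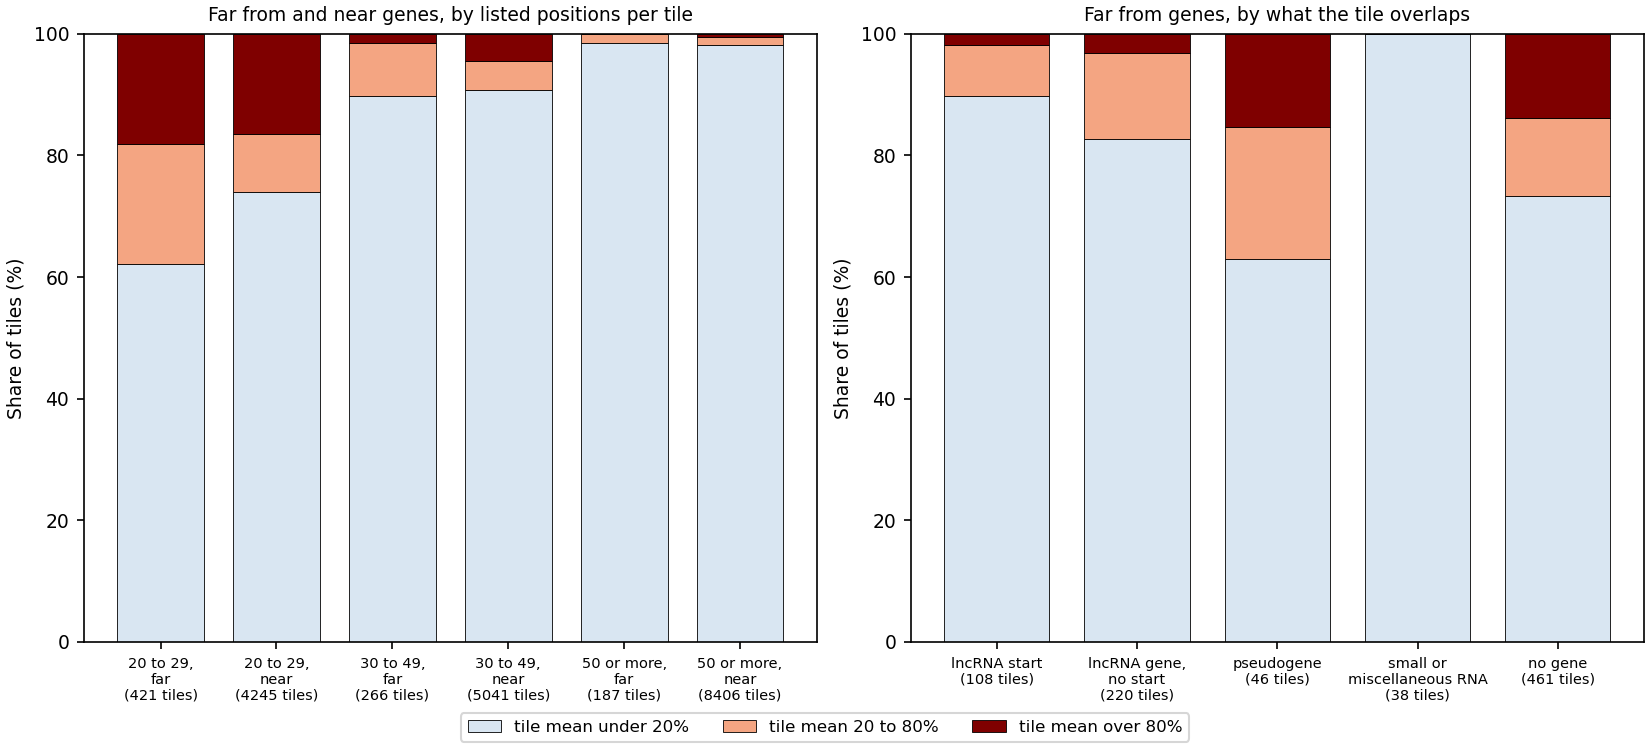
Share of tiles (%) with a mean level under 20%, at 20 to 80% and over 80%, for tiles far from and near genes in 3 bins of listed positions (left), and for the tiles far from genes by the kind of gene they overlap (right). The far and near bars of the unmethylated and intermediate classes differ most at 20 to 29 positions, with 62.2% and 74.0% unmethylated, and the 38 tiles over small or miscellaneous RNA genes were all unmethylated.

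Thresholds of the rule cut through a gradual range. Just inside the position limit, the 120 tiles of 20 or 21 positions were 50% unmethylated and 28.3% methylated, and just outside it the 174 tiles of 18 or 19 positions were 44.8% and 28.7%. Just inside the distance limit, 91.8% of the 49 tiles at 5 to 6 kb were unmethylated, against 87.7% of the 73 dense tiles at 4 to 5 kb. Distance from genes had a median of 24.6 kb and reached 1393.7 kb. The unmethylated share was 86.4% of 199 tiles at 5 to 10 kb, 80.1% at 10 to 20 kb, 78.4% at 20 to 50 kb, 73.0% at 50 to 100 kb and 67.0% of 97 tiles beyond 100 kb. The methylated share over the same bins was 3.52%, 4.09%, 9.80%, 15.8% and 17.5%. Median positions per tile in these bins were 28.0, 32.0, 32.0, 32.0 and 27, so that position number did not fall steadily with distance. These bins are descriptions of tiles and were not tested.

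Even among unmethylated tiles, the level far from genes was above that near genes. Their median was 2.54% (quartiles 0.814% and 4.96%) against 0.650% (0.491% and 2.12%). With 50 or more positions the medians were 1.53% in 184 tiles and 0.568% in 8252. Sample medians ran from 1.58% to 3.18% far from genes and from 0.573% to 0.913% near them, so that the 27 samples did not overlap between the sets. Around the 685 unmethylated tiles the level rose with distance. It was 3.32% ± 0.438 (SD over 27 samples) inside the tile, 10.8% ± 0.658 at 1 to 2 kb from the midpoint and 18.1% ± 0.808 at 2 to 3 kb, and stayed at 18.8% ± 0.930 at 4 to 5 kb. Near genes the corresponding levels were 1.62%, 7.05%, 16.7% and 23.6%.

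**Figure D2:**
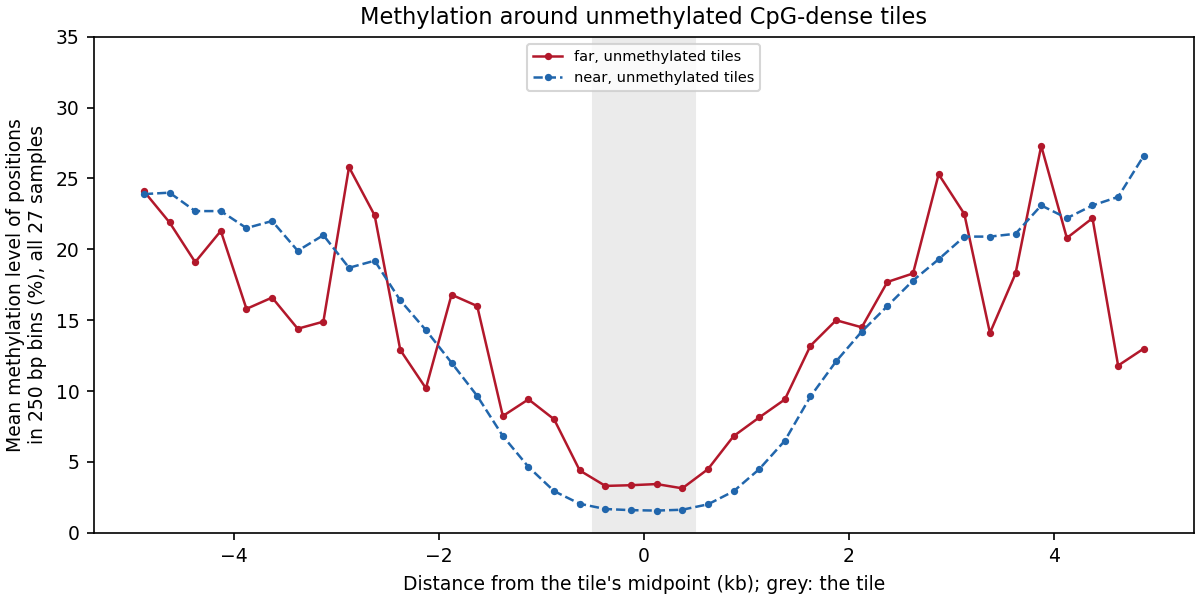
Mean methylation level (%) of listed positions in 250 bp bins against distance from the tile's midpoint (kb), averaged over all 27 samples, around unmethylated tiles far from genes (solid) and near genes (dashed). Both sets have their lowest bins inside the tile, where the mean over all positions is 3.32% and 1.62%, and rise on both sides.

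Runs of adjoining tiles were short. The 874 tiles formed 761 runs, of which 661 were 1 tile long, 91 were of 2 tiles and 9 of 3 or more. Of the 100 runs of 2 or more tiles, 94 kept to 1 class. The longest run held 5 tiles (chr11:120185001-120190000) over Gm9734, with tile means from 0.700% to 5.05%. A run of 3 tiles with 342 positions at 0.457% to 0.483% lay on chromosome 14 beside Mir17, the first gene of an oncogenic miRNA cluster. Another run of 3 tiles, with Mef2c as nearest protein-coding gene, lay over the lncRNA gene C130071C03Rik, at 0.933% to 2.31%.

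By what they overlapped, the tiles differed in class. Tiles holding a lncRNA start were 89.8% unmethylated (108 tiles, median 1.82%), and tiles over a lncRNA gene but without a start 82.7% (220 tiles, median 3.43%). Tiles over pseudogenes, copies of genes that have usually lost function, were 63.0% unmethylated, 21.7% intermediate and 15.2% methylated (46 tiles). The 461 tiles over no gene of the table were 73.3% unmethylated and 13.9% methylated. Median positions in these 4 groups were 39.5, 32.0, 27.5 and 28.0, and their part in these shares was not tested.

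All 38 tiles over a small or miscellaneous RNA gene, without a lncRNA start, were unmethylated, with a mean of 1.62% and a median of 31.0 positions. Transfer RNA genes lay in 19 of these tiles, miRNA genes in 8, miscellaneous RNA genes in 8, small nuclear RNA genes in 3 and the telomerase RNA gene Terc in 1, some tiles holding more than 1 kind. The Terc tile (chr3:96414001-96415000, 44 positions) was at 0.456%, with strain means spanning 0.442 points. Among tRNA tiles, n-TIaat17 was at 0.330% over 57 positions, n-TPcgg2 at 0.515% over 72 positions and the cluster n-TRacg3, n-TYgta1, n-TYgta2 and n-TAagc14 at 0.716% over 39 positions. The highest tRNA tile was n-TWcca8 at 6.00% over 20 positions, and the highest of the 38 tiles was over the miscellaneous RNA Gm8350 at 8.01%.

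The tiles with the most positions were all nearly free of methylation. The highest count was 223 positions at chr14:115041001-115042000, 2.17 kb from Mir17, with a mean of 0.483% and samples from 0.224% to 1.00%. A tile of 191 positions at chr15:85671001-85672000, 63.4 kb from Ppara, the nuclear receptor of fatty acid oxidation, had 0.533% (0.277% to 1.01%). Next were the Mir760 tile named above and a tile of 152 positions in Dleu2, a lncRNA gene that hosts miRNAs, at 0.529% (0.165% to 1.23%). Tiles of 147 positions near Igip on chromosome 18 (2.19%, 1.10% to 3.78%) and of 139 positions at Mir193a followed. None of these 6 had strain means more than 1.80 points apart.

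Developmental regulators were frequent among the nearest protein-coding genes. For 108 of the 874 tiles (12.4%) the nearest gene was on a list of developmental transcription factor families such as Hox, Pax, Sox, Fox, Irx and Nkx, matched by symbol. The list took 234 of 20665 autosomal protein-coding genes (1.13%), and it was the nearest gene for 4.27% of near-gene dense tiles and for 5.37% of tiles with 5 to 19 positions far from genes. These shares are descriptions, since tiles of a locus are not independent and gene spacing differs. Of the 108 tiles 84.3% were unmethylated, against 77.5% of the other 766. The nearest gene is named as a landmark and not as a target.

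Pax2, a regulator of kidney and eye development, had 7 tiles at 5.10 to 72.1 kb, with 6 unmethylated and 1 at 87.1%. The methylated one lay at 29.1 kb, between unmethylated tiles at 26.1 kb (3.06%) and 62.1 kb (4.07%). Sox1, a neural regulator, had 6 tiles from 2.95% to 81.4%. The proneural gene Neurog1 had 4 tiles, all from 2.36% to 6.27%, and the orphan nuclear receptor gene Nr2f2 had 4 from 1.43% to 21.4%. Near Hoxa13, of the distal end of the HoxA cluster, 2 tiles were at 4.19% and 6.91%, and near Sox2 2 were at 2.45% and 6.45%. The liver regulators Foxa1 and Onecut1 were nearest to 1 tile (1.28%) and 2 tiles (0.717% and 55.3%). Irx5 had 3 tiles that ran from 1.30% to 90.3%. Tiles near Pax2, Sox1 and Irx5 thus included both methylated and unmethylated ones, at different distances from the gene.

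Tiles farthest from any protein-coding gene covered all 3 classes. The farthest lay at 1393.7 kb from Tenm3 in the lncRNA gene 1700019L22Rik (chr8:50916001-50917000, 42 positions) and was at 1.72%, from 0.729% to 2.82% over samples. A group of 3 tiles between 465.0 and 494.0 kb from Galr1, a galanin receptor gene on chromosome 18, stood at 83.7%, 4.75% and 68.4%. Strains differed at the last of these, from 54.2% in DBA/2J to 86.8% in CAST/EiJ (limma, adjusted p = 4.3e-06). In the lncRNA gene Gm29931 (chr7:136502001-136503000), 392.0 kb from the DNA repair gene Mgmt, a tile of 42 positions was at 33.1%. Within that tile 50% of positions were under 20% and 21.4% over 80%. In Gm44689, 372.3 kb from Mctp2, a tile of 64 positions was at 1.80%.

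Positions within intermediate tiles were classed by their own mean over all samples, which does not tell a position that was intermediate in each strain from one that was high in some strains and low in others. In the 109 intermediate tiles the median share of positions at 20 to 80% was 59.1%, 39 tiles had at least 75% such positions and 6 had under 25%. Of the 109, 43 are among the called tiles described further on, whose strain means range over at least 25 points. Near genes the median was 58.6% over 750 tiles. An intermediate level in every strain was found in 55 tiles (6.29%), against 2.36% of near-gene tiles. A methylated level in every strain was found in 57 (6.52%) and an unmethylated one in 647 (74.0%). The remaining 115 were 69 that crossed the limit of 20% among strains, 45 that crossed that of 80% and 1 that was unmethylated in some strains and methylated in another.

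The tile means of 10 tiles lay between 35 and 65% in all 9 strains. The most even was in the lncRNA gene Gm39456 (chr9:120619001-120620000, 23 positions), at 52.6% with strain means from 48.8% in WSB/EiJ to 58.6% in PWK/PhJ and samples from 46.3% to 62.1% (limma, adjusted p = 0.104). In Gm11476, near Ube2v1, a tile of 71 positions was at 42.0%, from 35.4% in WSB/EiJ to 49.1% in CAST/EiJ (limma, adjusted p = 0.00110). The tile over the pseudogene Mlnr-ps (24 positions) was at 46.7% although 8.33% of its positions were intermediate, with 50% under 20% and 41.7% over 80%. Tiles nearest to Serhl (46.2%), Iqca (49.2%) and Larp1 (49.8%) had ranges of 11.2, 12.5 and 13.9 points over strain means. An even level of a tile thus did not always mean that most of its positions were intermediate. No tile overlapped or lay within 5 kb of any of 11 imprinted noncoding genes looked up (H19, Meg3, Rian, Mirg, Kcnq1ot1, Airn, Snhg14, Peg13, Igf2os, Mir335 and Mir296). The rule left out tiles inside or within 5 kb of protein-coding genes. Any of the 11 that lie inside such a gene could therefore hold no tile. Imprinting of the even tiles was not tested.

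Strains differed in the mean level of the 874 tiles. PWK/PhJ (18% ± 0.150, SD, n = 3) and A/J (17.9% ± 0.149) were highest, followed by CAST/EiJ (17.5% ± 0.0662), NOD/ShiLtJ (17% ± 0.201) and NZO/HlLtJ (16.7% ± 0.122). DBA/2J (16.1% ± 0.279), 129S1/SvImJ (16.1% ± 0.175), C57BL/6J (16.0% ± 0.0957) and WSB/EiJ (15.8% ± 0.280) were lowest. Samples of PWK/PhJ and A/J overlapped, as did those of the lowest 4 strains, and those of NOD/ShiLtJ and NZO/HlLtJ met at 16.8%. The 3 CAST/EiJ samples (17.4% to 17.5%) lay below all A/J samples and above all NOD/ShiLtJ samples. The permutation test of F over strains gave F = 63.7 with p = 1.0e-05, the smallest that 100000 resamples can give (adjusted 3.0e-05). Near-gene tiles had much the same order of strains, so this order was not particular to tiles far from genes. Their strain means were highest in PWK/PhJ (9.43%), A/J (9.37%) and CAST/EiJ (9.07%) and lowest in C57BL/6J (8.46%) and WSB/EiJ (8.36%).

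The share of unmethylated tiles was 80.3% in each WSB/EiJ sample and 76.8% to 77.2% in A/J (permutation test, F = 36.4, p = 1.0e-05, adjusted 3.0e-05). The share of intermediate tiles was 13.8% ± 0.973 in A/J, 13.8% ± 0.433 in NOD/ShiLtJ and 10.9% ± 0.368 in WSB/EiJ (permutation test, F = 12.9, p = 1.0e-05, adjusted 3.0e-05). The share of methylated tiles ran from 8.31% ± 0.462 in 129S1/SvImJ to 9.95% ± 0.198 in PWK/PhJ (permutation test, F = 5.52, p = 0.00162, adjusted 0.00364). When tiles within 5 kb of a gene of any type were left out, this last permutation test gave F = 1.58 and p = 0.199. The F of the intermediate share was 24.3 without replicate 1 of A/J, whose share was 12.7% against 14.2% and 14.5% in the other two. A/J and PWK/PhJ samples overlapped in the mean level and in all 3 shares. Near genes the unmethylated share was likewise highest in WSB/EiJ (90.7%) and lowest in A/J and PWK/PhJ (89.8% in each).

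**Figure D3:**
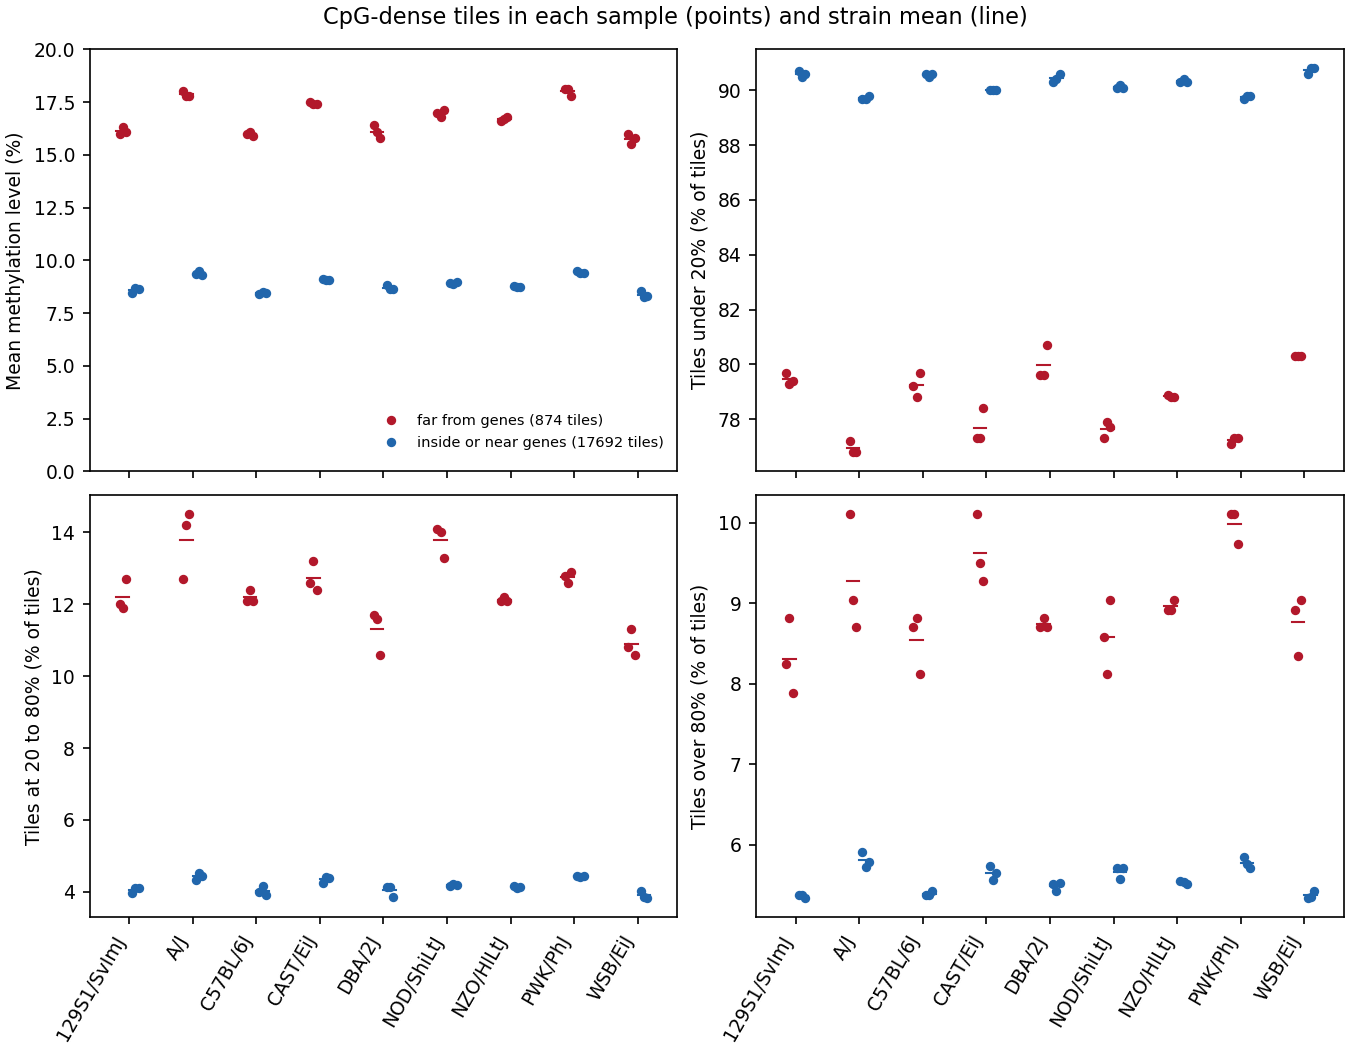
Mean methylation level (%) and share of tiles (%) in the 3 classes for each of the 27 samples (points, with the strain mean as a line), by strain, for tiles far from genes and near genes; 3 of the 4 vertical axes do not start at 0. In every sample the mean level and the intermediate and methylated shares were higher, and the unmethylated share lower, far from genes.

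Differences among strains at single tiles were tested with the moderated F test of limma over all 45604 tiles of the genome that had 5 or more positions and a mean of at least 2.5%, with a like limit at the upper end that took no member. A tile was called at a Benjamini-Hochberg adjusted p under 0.05 and a range of strain means of at least 25 points. Sequence variants between strains at the listed positions could not be examined, in this test or in the strain comparisons above. A variant at a position and a methylation difference can therefore not be told apart here. Of the 874 tiles 339 were too low to be tested, and 52 of the other 535 were called (9.72%). Over all tested tiles 8.01% were called, and 6.38% of tested near-gene tiles, so that the share among tested members was close to the background. As a share of all tiles, tested or not, 5.95% of members and 1.87% of near-gene tiles were called. This contrast moved with the number of positions. It was 9.26% against 3.89% at 20 to 29 positions, 4.51% against 2.22% at 30 to 49 and 0.535% against 0.642% at 50 or more. With the adjusted p alone, 240 members (44.9% of those tested) passed against 26.1% of all tiles tested. Most members varied little, with a median range of 2.75 points and 577 (66.0%) under 5 points, against 88.1% of near-gene tiles.

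The called tiles were mostly intermediate, with 43 of 52 at a mean of 20 to 80%, 8 below and 1 above. A range of 25 points is harder to reach near either end of the scale. This split is therefore partly fixed by the rule for a call, and it was not set beside that of all called tiles. Their median range was 36.9 points, against 34.8 in all called tiles, and 8 had 50 points or more. PWK/PhJ was highest in 15 (28.8%, against 28.3% of all called tiles), CAST/EiJ in 12 (23.1%, against 24.3%) and A/J in 12 (23.1%, against 17%). WSB/EiJ was lowest in 16 (30.8%, against 17.5%). CAST/EiJ and PWK/PhJ both lay above the other 7 strains in 17 (32.7%, against 21.1%) and both below them in 1 (1.92%, against 7.09%). Only 2 tiles were set apart, meaning that all samples of 1 strain were at least 25 points from all others (0.374% of those tested, against 0.399% of all tiles). C57BL/6J was highest in 0 of the 52, against 5.01% of all called tiles. These shares are counts over tiles and were not tested.

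**Figure D4:**
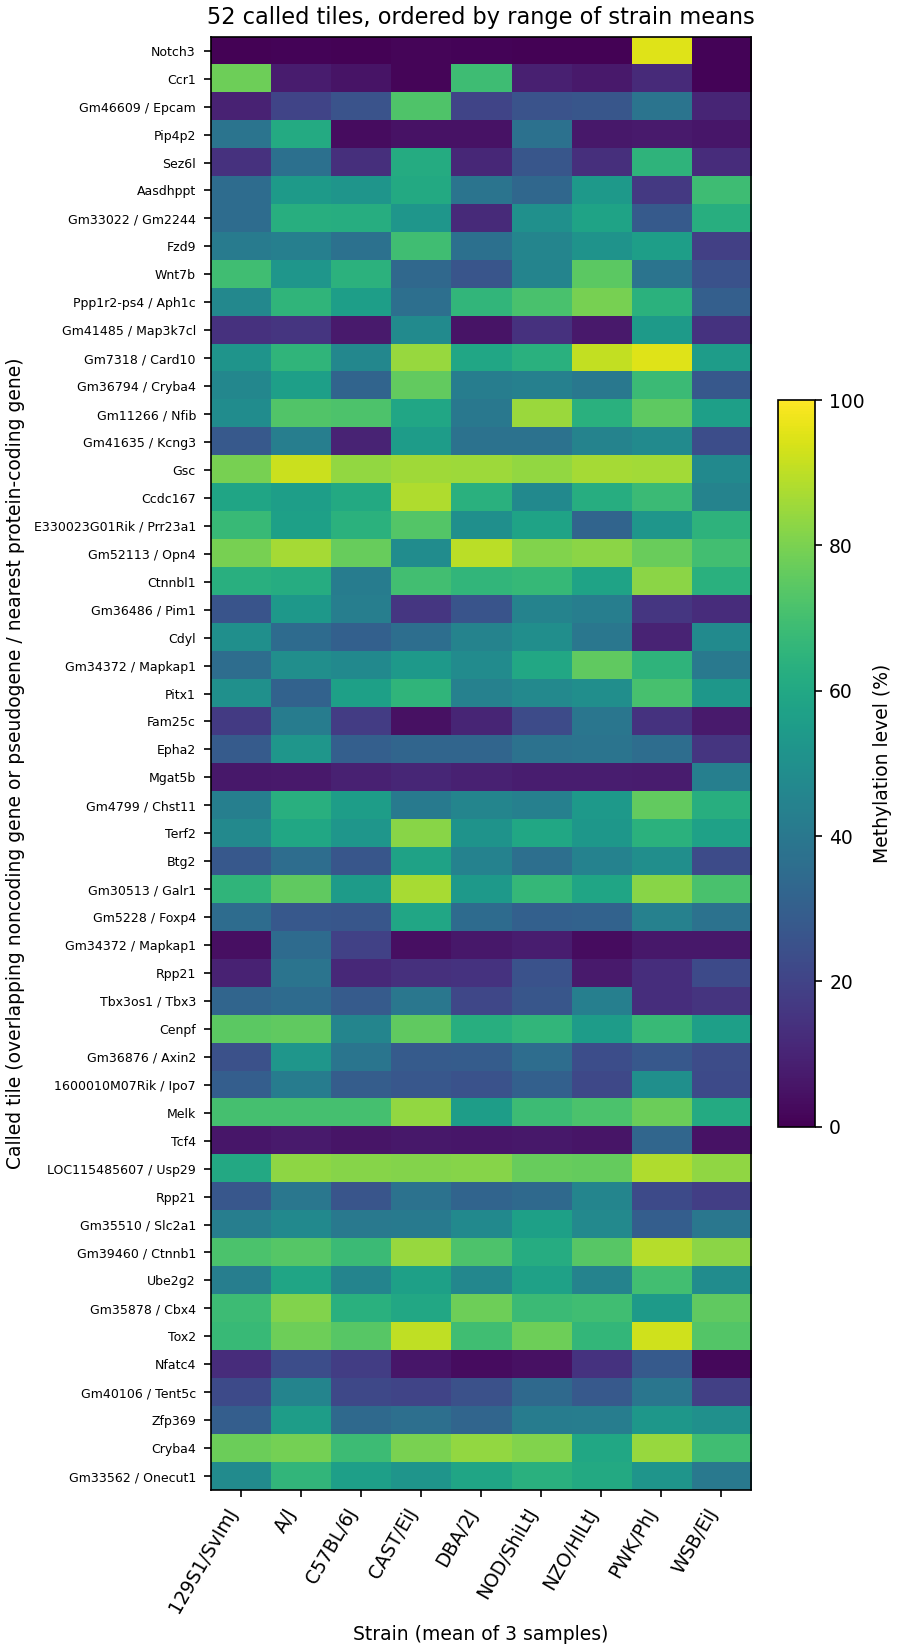
Mean methylation level (%) in each strain (columns, mean of 3 samples) of the 52 called tiles (lines of the map), ordered by range and named by an overlapping noncoding gene or pseudogene and the nearest protein-coding gene. In 17 of the 52 both CAST/EiJ and PWK/PhJ are above the other 7 strains.

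Both tiles that were set apart were higher in 1 strain than in all others. One, nearest to Notch3, a receptor of vascular muscle, was methylated in PWK/PhJ, with samples at 94.3%, 95.7% and 95.5% and all other samples at 1.89% or below. The other (chr11:116994001-116995000, nearest to the glycosyltransferase gene Mgat5b) averaged 43.3% in WSB/EiJ and 6.62% to 10.7% in the other 8 strains (limma, adjusted p = 1.0e-09).

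The next largest range was at chr9:123924001-123925000, a tile of 46 positions 0.647 kb from the lncRNA gene Gm51701 and 37.6 kb from Ccr1, a chemokine receptor gene. Samples of 129S1/SvImJ were at 75.7%, 79.6% and 78.7% and those of DBA/2J at 76.4%, 75.5% and 54.6%. All samples of the other 7 strains were at 12.8% or below, with CAST/EiJ (1.19% to 1.29%) and WSB/EiJ (0.446% to 1.02%) lowest. The groups did not overlap, and strain means spanned 77.2 points (limma, adjusted p = 3.0e-12). This pattern joined a pair of laboratory strains and left out the other 4, as well as the 3 wild-derived strains.

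In Gm46609, 26.5 kb from the cell adhesion gene Epcam, a tile of 22 positions (chr17:87609001-87610000) was highest in CAST/EiJ, at 62.0%, 79.8% and 75.4%. PWK/PhJ followed at 37.0%, 49.8% and 28.9%, and 129S1/SvImJ was lowest at 11.4%, 10.7% and 6.93% (range 62.7 points, limma, adjusted p = 1.2e-08). The CAST/EiJ samples lay above all others. A tile of 22 positions 18.7 kb from Pip4p2, a lipid phosphatase gene (chr4:14845001-14846000), was raised in 3 laboratory strains. A/J samples were at 58.5%, 66.9% and 57.5%, those of 129S1/SvImJ at 49%, 43.1% and 23.2% and those of NOD/ShiLtJ at 32.6%, 35.1% and 44.1%. The other 6 strains were at 9.10% or below in every sample (range 57.7 points, limma, adjusted p = 7.1e-11).

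A shared rise in CAST/EiJ and PWK/PhJ was seen in a tile of 37 positions 47.0 kb from Sez6l, a neuronal gene (chr5:112625001-112626000). CAST/EiJ samples were at 59.2%, 67.2% and 58.3% and PWK/PhJ samples at 63.7%, 64.0% and 68.0%. A/J came next at 41.8%, 31.3% and 37.5%, and DBA/2J was lowest at 8.52%, 13.5% and 11.9% (range 53.9 points, limma, adjusted p = 8.8e-12). The same pair of strains was high in Gm41485, near Map3k7cl (chr16:87611001-87612000, 20 positions), at 45.2% to 50.8% in CAST/EiJ and 48.9% to 59.4% in PWK/PhJ, with all other samples at 19.8% or below (limma, adjusted p = 9.0e-10). Neither tile had overlap between these 6 samples and the other 21.

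A tile of 48 positions 34.3 kb from Aasdhppt, a gene for an enzyme that activates carrier proteins (chr9:4260001-4261000), was graded over strains. WSB/EiJ was highest at 70%, 61.8% and 75.2% and PWK/PhJ lowest at 14.9%, 15.5% and 19.5%, and every position averaged between 20 and 80% (range 52.4 points, limma, adjusted p = 5.1e-07). CAST/EiJ samples (59.3% to 62.2%) were on the other side from PWK/PhJ here. The Gm33022 tile shown above (chr14:19311001-19312000, 29 positions) was lowest in DBA/2J, at 8.84%, 12.1% and 14.4%, and then in PWK/PhJ at 30%, 28.2% and 26.3%. The highest strain means were 62.8% in WSB/EiJ, 62.7% in A/J and 62.2% in C57BL/6J, which overlapped (range 51.0 points, limma, adjusted p = 1.2e-08).

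**Figure D5:**
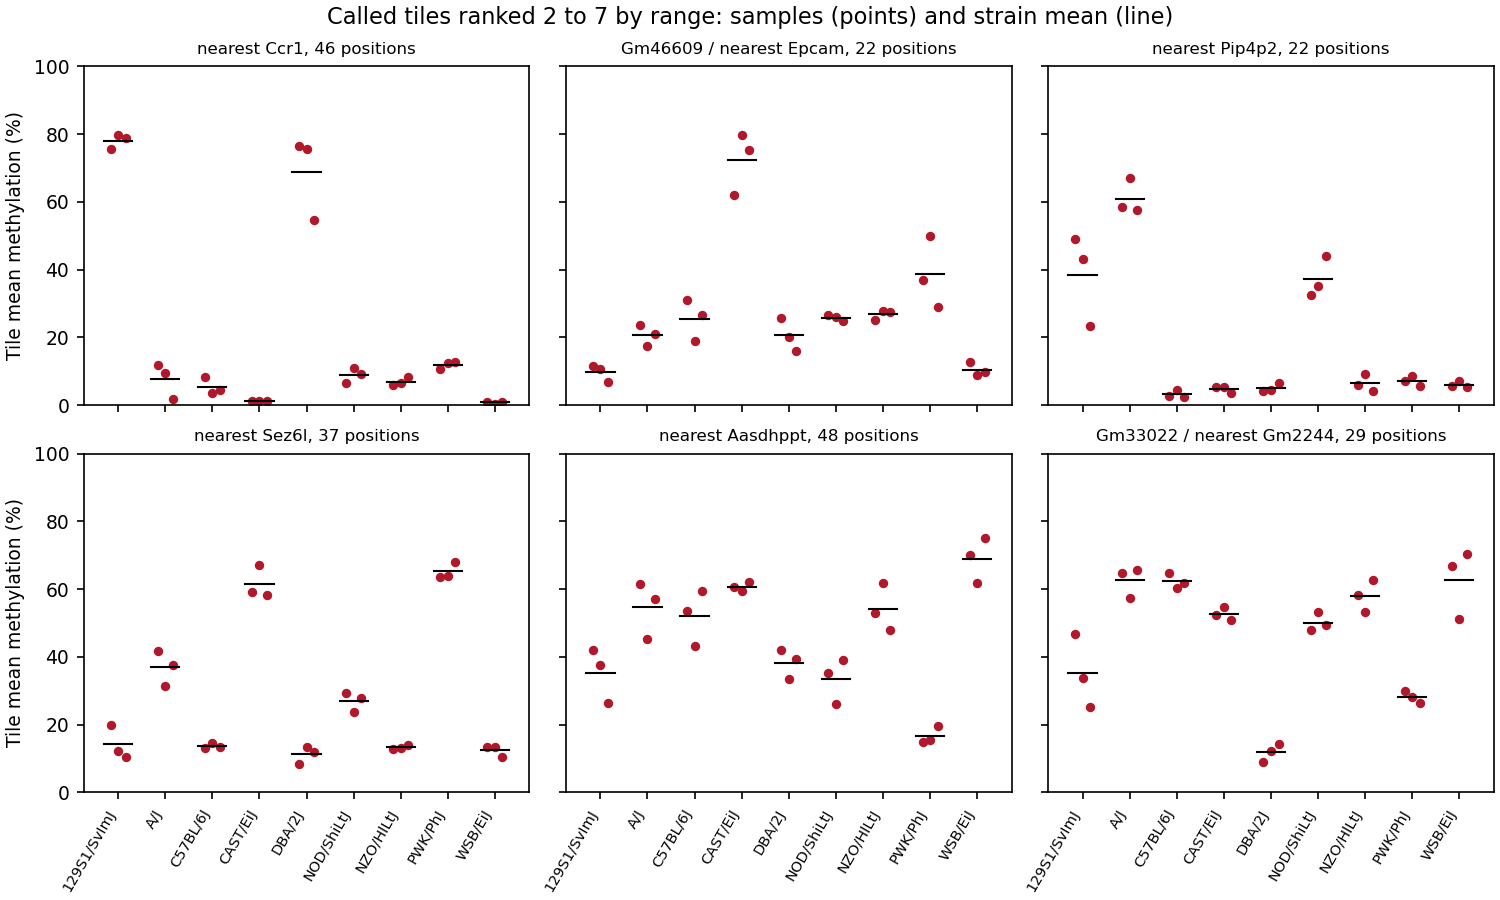
Tile mean methylation (%) in each of the 27 samples (points) and strain means (lines) for the 6 called tiles with the largest ranges after the Notch3 tile. The strains that are high differ from tile to tile, for example 129S1/SvImJ and DBA/2J near Ccr1 and CAST/EiJ and PWK/PhJ near Sez6l.

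WSB/EiJ was lowest in 3 more of the 12 called tiles with the largest ranges. Near Fzd9, a Wnt receptor gene, the tile was at 17.5%, 22.1% and 17.1% in WSB/EiJ and 68.7%, 69.3% and 70% in CAST/EiJ (limma, adjusted p = 7.7e-10). Near Wnt7b, a Wnt ligand gene, it was at 25.1%, 29.4% and 21.5% in WSB/EiJ and 78.8%, 73.4% and 72.2% in NZO/HlLtJ (limma, adjusted p = 6.2e-10). At the Wnt7b tile DBA/2J (24.8% to 29.4%) overlapped WSB/EiJ. Over the pseudogene Ppp1r2-ps4, near the secretase subunit gene Aph1c, WSB/EiJ was at 34.2%, 26.1% and 30.9% and NZO/HlLtJ at 76.6%, 80.9% and 81.1% (limma, adjusted p = 3.3e-09).

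The 4 tiles with the largest spread between mice of a strain were all called. The pooled SD within strains was 7.47 points at Gm41635, near the potassium channel gene Kcng3, where CAST/EiJ samples were at 52.3%, 67.1% and 45.9% and C57BL/6J samples at 10.6%, 10.6% and 9.14% (limma, adjusted p = 1.4e-05). It was 7.13 points over the pseudogene Gm7318, near the signalling scaffold gene Card10, where PWK/PhJ samples (94.1% to 95.6%) lay close together and C57BL/6J samples were at 56.2%, 55.2% and 28% (range 48.6 points, limma, adjusted p = 4.0e-08). At Tbx3os1, a lncRNA gene beside the regulator Tbx3, the SD was 6.89 points, with WSB/EiJ samples at 27.1%, 4.57% and 13.4%, and near Aasdhppt it was 6.40. Over intermediate tiles the mean SD within strains was 0.244 points higher far from genes than near them (exact sign-flip permutation test over 9 strains, p = 0.0195, higher in 8 of 9 strains). The call was lost in 5 of the alternatives. The difference was -0.270 points among tiles of 30 or more positions (exact p = 0.0508) and 0.200 without replicate 2 of A/J (exact p = 0.0508). It was 0.125 points beyond 2 kb of protein-coding genes (exact p = 0.125), 0.232 beyond 5 kb of any gene (exact p = 0.0547) and 0.126 with intermediate limits of 30 to 70% (exact p = 0.227).

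Genes of the developmental list had 3 called tiles of 108, near Foxp4 (mean 36.4%), Onecut1 (55.3%) and Tbx3 (28.3%). That is 2.78% of these tiles, against 6.40% of the other 766 members and 5.95% of all 874. Of the 38 tiles over small or miscellaneous RNA genes, 8 had a mean high enough for the limma test, and 4 of these had an unadjusted p under 0.05. None was called, by limma or by an ordinary F test, since the largest range of strain means was 8.43 points (3 had an adjusted p under 0.05 in limma).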

How the data were processed

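Each deposited file lists single cytosine positions of 1 sample with their percent methylation, per the file headers, without read counts or coverage. The depth behind each percent is therefore unknown and no counting interval is given. Per the submitters' processing notes, Trim Galore 0.6.3, Bowtie2 and Bismark 0.22 were used with the build GRCm38 (mm10), and MspI-digested libraries were made with a commercial kit, per the labels' protocols. Any coverage filter is not given in the sources used here. Both strands of a CpG are listed as separate positions.

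Positions listed in all 27 files were averaged per tile and sample, and gene spans came from the RefSeq table of GRCm38.p6. Strains were compared with limma 3.58.1 (R 4.3.3), strain as factor, on log2((percent + 5)/(100 - percent + 5)) of tile means, with Benjamini-Hochberg adjustment over all 45604 tested tiles; the script was tested on simulated data. Other values were computed with Python 3.11.15, numpy 2.4.6, scipy 1.17.1 and pandas 2.3.3, and figures with matplotlib 3.10.9. The p-values of limma and of the permutation tests of F measure the spread between the 3 replicates of each strain, labelled biological. Those of the exact sign-flip tests measure the spread between strains. They were computed from strain means or, for the spread within strains, from the mean SD of each strain. Tiles were named by a rule: the 12 called tiles with the largest range, the 6 with most positions, the 6 farthest, the 6 most even intermediate, tiles at imprinted noncoding genes and the 4 with the largest spread. Other tiles and genes were named after their values were seen. The members, lists and rules were chosen with earlier results of these data known. The list of developmental families matches symbols, so it also takes a few unrelated genes such as Tbxa2r. Nespas, also on the imprinted list, was not matched and is not analysed here. Alternatives covered distance, positions, class limits, filters, strands, the replicate block and leaving out each sample, and their effect is given in the closing section.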

Additional observations from a re-analysis of the deposited data

How the results depend on the processing

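Leaving out any 1 sample changed the counts of called tiles to between 50 and 54 and of tiles set apart to 2.00 to 3.00. It kept the F over strains at 54.7 to 76.7 (mean level), 31.6 to 50.5 (unmethylated share), 10.8 to 24.3 (intermediate) and 4.32 to 7.55 (methylated). The differences from near-gene tiles ran from -11.7 to -11.6 (unmethylated), 8.21 to 8.31 (intermediate), 3.37 to 3.44 (methylated), 7.92 to 7.94 (mean level) and 0.200 to 0.269 points (spread), the last with p = 0.0508 in the exact test without replicate 2 of A/J. The spread difference was 0.125 points beyond 2 kb (exact p = 0.125), 0.232 beyond 5 kb of any gene (exact p = 0.0547), 0.126 with limits of 30 to 70% (exact p = 0.227) and -0.270 with 30 or more positions. With 30 or more positions the methylated difference was -1.04 points. Within bins chosen after seeing the data, it was -2.74 (30 to 49 positions) and -0.638 (50 or more), the mean level difference was -0.273 (30 to 49) and the unmethylated difference 0.0860 (50 or more). The F of the methylated share was 1.58 beyond 5 kb of any gene (permutation p = 0.199). Called tiles numbered 30 beyond 20 kb, 305 with 10 or more positions, 13 with 30 or more, 20 beyond 5 kb of any gene, 144 with a minimum range of 10 points and 240 with none; the first 4 change the number of members by construction, with 5.95%, 8.64%, 2.87% and 5.88% of members called. With a gap of 10 points, 12 tiles were set apart. The cause of these changes was not tested beyond that. Some differences kept their sign and call but moved by over 1.5 times. With 10 or more positions they were -32.1 (unmethylated), 14.2 (intermediate), 17.9 (methylated) and 24.1 points (mean level), and with 30 or more -2.11, 3.16 and 1.25 for all but the methylated. Beyond 5 kb of any gene they were -18.9 (unmethylated), 9.26 (methylated) and 14.2 (mean level), and the methylated difference was 7.06 beyond 20 kb and 2.09 beyond 2 kb. Limits of 10 to 90% gave 15.7 (intermediate) and 0.542 (methylated), and limits of 30 to 70% gave 4.37 (intermediate). Over the same settings F over strains ran from 40.6 to 68.7 (mean level), 15.2 to 49.8 (unmethylated), 4.03 to 16.8 (intermediate) and 1.58 to 11.3 (methylated). In all, 394 values for the main comparisons, these included, kept their direction and side of the threshold but not always their size, and all 752 for named tiles kept the call or its absence, which needs a range of 25 points too. By adjusted p alone, 5 named tiles that were not called crossed 0.05 in 8 of these values, with p from 0.0112 to 0.0363 (near Iqca, Rpl14, Larp1, Fndc3a and Galr1). Without C57BL/6J, an alternative added after seeing the data, 50 tiles were called, all among the 52, and F for the mean level was 59.5. Against near-gene tiles outside spans only or inside spans only, also added, the unmethylated difference was -18.7 and -9.70 points, the methylated 8.25 and 2.06 and the mean level 13.6 and 6.34.

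Over the tested tiles, replicate numbers showed no pairing of samples. Deviations of same-numbered samples of different strains correlated at 0.00387 on average (-0.0416 to 0.0376 over 76 pairs, 0 over 0.1). With the replicate block, the same 52 tiles were called. F was then 53.6, 65.8, 11.9 and 5.01 for the mean level and the unmethylated, intermediate and methylated shares, against 63.7, 36.4, 12.9 and 5.52 without it. Why F of the unmethylated share rose was not tested. Coverage was not listed, so that tiles cannot be weighted by depth. How precise the means of tiles with few positions are was not tested.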

Other observations

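Called tiles that lay close together did not always follow the same strains. These loci were chosen after their values were seen, and the differences between neighbours were not tested. In the lncRNA gene Gm34372 on chromosome 2, near Mapkap1, a tile from 34639001 was highest in A/J (35.1%) and lowest in NZO/HlLtJ (3.36%). A tile from 34645001 in the same gene was highest in NZO/HlLtJ (75.5%), with A/J at 49.6%. Near Rpp21, in the histocompatibility region of chromosome 17, a tile from 36231001 was highest in A/J (38.3%) and lowest in NZO/HlLtJ (7.25%), and a tile from 36249001 was highest in NZO/HlLtJ (45.6%), with A/J at 39.8%. Near Cryba4 on chromosome 5, the tile of Gm36794 ran from 27.6% in WSB/EiJ to 76.0% in CAST/EiJ, and a tile from 111958001 from 59.4% in NZO/HlLtJ to 84.6% in PWK/PhJ.

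The called tile with the highest mean (81.1%, chromosome 12 from 104447001, 30 positions) lay 23.7 kb from Gsc, the homeobox gene goosecoid. WSB/EiJ was at 47.3%, and the other 8 strains were between 79.4% and 92.1% (limma, adjusted p = 4.9e-06). A tile of 30 positions over LOC115485607, 10.3 kb from the imprinted gene Usp29 on chromosome 7, was at 60.2% in 129S1/SvImJ and at 76.5% to 88.0% in the others. A tile of 50 positions 144.9 kb from the neurodevelopmental gene Tcf4 on chromosome 18 was at 32.9% in PWK/PhJ and at 5.02% to 7.36% in the others (limma, adjusted p = 6.2e-09).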
